A study of Mus musculus with 6 samples.

Results

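The collagen chains that are not specific to cartilage were described in the murine tissue around engineered cartilage. They were chosen by name, as all genes of the count table whose symbol has the form of a collagen chain, without Col2a1, Col9a1, Col9a2, Col9a3, Col10a1, Col11a1 and Col11a2. This gave 37 of the 48440 genes in the table, of which 32 had enough reads to be tested (15257 genes in all). By class, 8 were fibrillar, 8 belonged to the basement membrane, 6 were FACIT collagens (fibril-associated collagens with interrupted triple helices) and 15 were of other types. The numbers tested were 8, 6, 5 and 13.

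Collagens are trimers of chains wound into a triple helix. Fibrillar chains (types I, III, V and their relatives) form the tensile fibrils of connective tissue, type IV chains form the sheet-like network under endothelium and around fat, muscle and nerve, and FACIT chains sit on the surface of fibrils. Type VI chains build beaded filaments near cells, and the remaining types include transmembrane and anchoring collagens.

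Bone marrow stromal cells of New Zealand white rabbits were grown on a scaffold into engineered cartilage (BEC), wrapped in an electrospun membrane of PCL and collagen, and placed under the skin of BALB/c nude mice, which lack a thymus. The membrane held axitinib, an inhibitor of VEGF receptor kinases, at 0% (0%-Axitinib group, n = 3) or 3% of its weight (3%-Axitinib group, n = 3), and the murine tissue entangled with the construct was sequenced at 12 weeks. The sample labels name the first group only as untreated, and it was read as the 0%-Axitinib group because the design text names both membranes. The mice were male and, by the study's methods, 6 to 8 weeks old when bought. Each mouse carried a pair of constructs, so samples of a group may share a mouse, and p-values measure the spread between these samples. The membrane itself contained collagen protein, which RNA counts do not measure.

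Reads on genes numbered 17761968, 16716411 and 18005908 in 0%-Axitinib replicates 1, 2 and 3 and 9225518, 11686084 and 18403795 in 3%-Axitinib replicates 1, 2 and 3. Values below are CPM (counts scaled to a common library size) on TMM-normalised libraries, always in the order of replicates 1, 2 and 3, and a count of 3 equalled 0.157 to 0.330 CPM. Unmapped reads made up 5.47, 3.84 and 14.9% of the 0%-Axitinib libraries and 48.4, 29.2 and 16.8% of the 3%-Axitinib libraries. Their origin was not analysed, and murine transcripts cannot be told apart from rabbit transcripts that map to the mouse genome.

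Markers of the labelled tissue were present in all samples. The fibroblast list summed to 10498, 5465 and 5022 CPM in the 0%-Axitinib group and 14889.6, 7527 and 15882 CPM in the 3%-Axitinib group, led by Gsn. The macrophage list summed to 11590.1, 12054 and 8624 CPM and 8327, 10732 and 16821 CPM, led by Lyz2, and the adipocyte list to 757, 715 and 932 CPM and 622, 309.8 and 418 CPM, led by Fabp4. In 3%-Axitinib replicate 2 the adipocyte sum was mostly Fabp4 (285 CPM). Adipoq, Cidec, Retn and Plin1, named after their values were seen, had only 5, 6, 4 and 2 counts there. Their means in the 0%-Axitinib group were 20.4, 19.2, 7.10 and 9.20 CPM. Individual samples differed in what else they held. Keratinocyte markers, led by Krt1, summed to 4.59, 899.7 and 4.18 CPM in the 0%-Axitinib group and 8.47, 7.74 and 5.38 CPM in the 3%-Axitinib group, and were high in 0%-Axitinib replicate 2 alone. Skeletal muscle markers, led by Acta1, summed to 144, 7.99 and 16.0 CPM and 14450.2, 21.05 and 7975 CPM, and were high in 3%-Axitinib replicates 1 and 3 but not in replicate 2; among them Tnnc2, which shares 74.0% of its exon bases with Ube2c, had at most 3 counts in any sample. Osteoblast markers, led by Ibsp, summed to 322, 256 and 683 CPM and 1242, 12413 and 2293 CPM, with the highest sum in 3%-Axitinib replicate 2. Cd79a, a B cell marker named after its value was seen, was measured at 1.67, 2.33 and 101 CPM and 0.660, 0.547 and 0.521 CPM, high in 0%-Axitinib replicate 3 alone.

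Collagen chains differed between samples within the groups. The 37 chains together took 3.44, 1.77 and 1.20% of the reads on genes in the 0%-Axitinib group and 2.40, 7.62 and 2.70% in the 3%-Axitinib group. The share was lowest in 0%-Axitinib replicate 3 and highest in 3%-Axitinib replicate 2, and the groups overlapped. Of the 32 tested chains, 20 had their lowest value in 0%-Axitinib replicate 3 and 14 had their highest in 3%-Axitinib replicate 2. In 0%-Axitinib replicate 1, 11 chains were highest, among them 5 of the 6 tested basement membrane chains, and removing that sample moved the number of higher chains given below from 2 to 7.

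A chain was called at a fold change of at least 1.5 with an unadjusted P of at most 0.05 from edgeR's quasi-likelihood test. The study gives the same limits without saying whether its P was adjusted. Col6a4, Col6a5 and Col6a6 were lower in the 3%-Axitinib group and Col1a1 and Col16a1 were higher. Col6a4 passed the filter on low counts only through the 0%-Axitinib group, so its direction was set by the filter, and 2 lower chains remain without it. With it, these are 3 lower chains of 32, where 11.7% of all tested genes were lower, and 2 higher chains, where 9.54% of all tested genes were higher. Together they are 5 chains of 32, where 21.2% of all tested genes met the criterion in either direction. The same 5 chains were those with an unadjusted P of at most 0.05, a level met by 23.5% of all tested genes. After Benjamini-Hochberg adjustment over 15257 genes, 0 chains had an edgeR adjusted p of at most 0.05 (0.00655% of all tested genes) and 0 chains one of at most 0.1 (5.01%). Removing 0%-Axitinib replicate 3 brought the count at 0.1 to 9 chains (27.3% of those tested, 24.5% of all genes). DESeq2's Wald test put the same 5 chains at an adjusted p of at most 0.05 (15.6% of the chains), along with 12.9% of all tested genes. The groups did not overlap for 4 chains. Of these, 3 were lower in the 3%-Axitinib samples (2 without Col6a4), a pattern found in 16.6% of all tested genes, and 1 was higher, found in 14.7%. The median log2 fold change was 0.84 for fibrillar chains, -0.64 for basement membrane chains, 0.72 for FACIT chains and 0.32 for other chains, against -0.034 for all tested genes. Removing 3%-Axitinib replicate 2 brought the fibrillar median to 0.38, removing 0%-Axitinib replicate 3 brought it to 0.43, and removing both, an alternative added after the data were seen, to 0.020. Removing 0%-Axitinib replicate 1 brought it to 1.43. The same removal of both gave -1.03 for basement membrane chains, and removing 0%-Axitinib replicate 1 gave -0.35. For FACIT chains these were 0.34 (0%-Axitinib replicate 3 removed) and 1.15 (0%-Axitinib replicate 1 removed), and for other chains -0.14 (0%-Axitinib replicate 3 removed). With library size taken as the total count in place of TMM, the median of all genes was -0.16, and 2448 genes were lower and 989 higher where TMM gave 1785 and 1456.

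**Figure D1:**
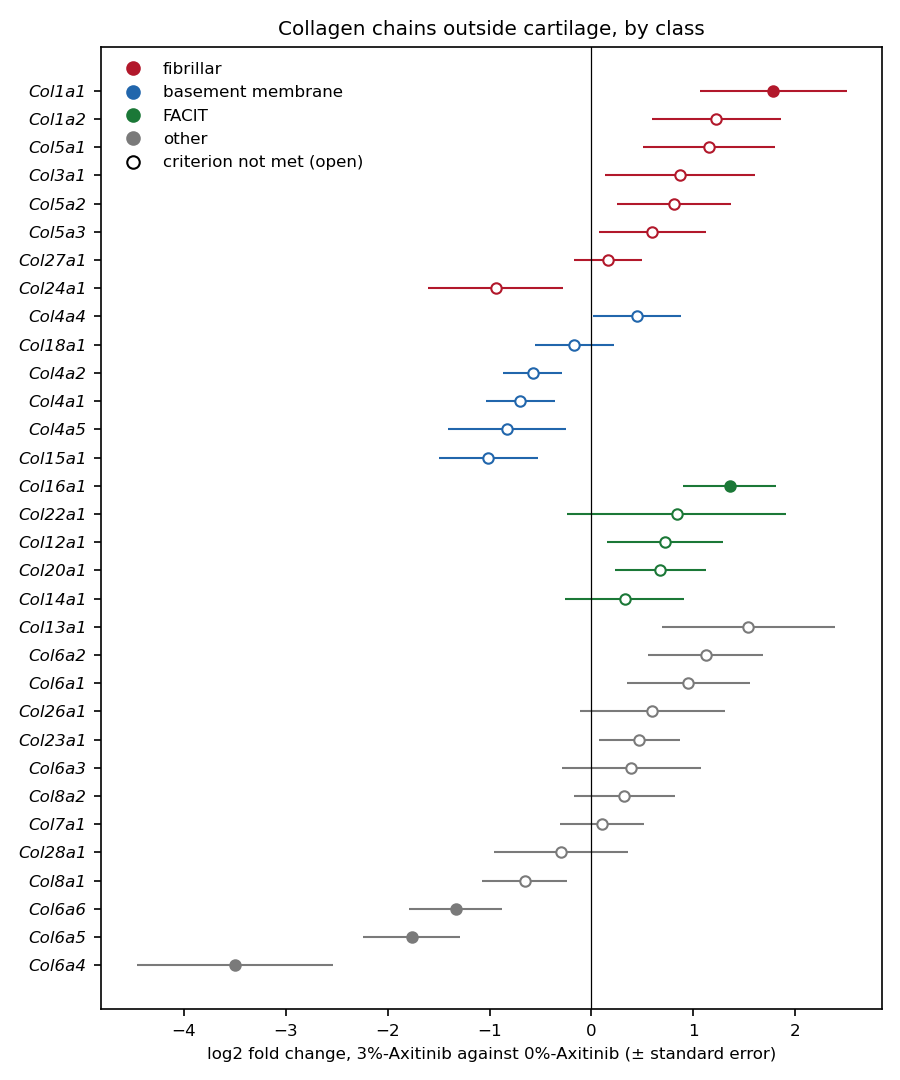
Log2 fold change of the 32 tested chains, 3%-Axitinib against 0%-Axitinib, with bars of 1 standard error, ordered by class. Filled points met the criterion (Col1a1, Col16a1, Col6a4, Col6a5 and Col6a6); 5 of the 6 basement membrane chains lie left of 0 and 7 of the 8 fibrillar chains lie right of it.

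Type I collagen, the main fibril of skin, tendon and bone, is made of the chains of Col1a1 and Col1a2. Col1a1 (chr11:94936224-94953042, GRCm38) was measured at 7130.5, 3236 and 3181 CPM in the 0%-Axitinib group and 6774, 30639 and 9337 CPM in the 3%-Axitinib group. 3%-Axitinib replicate 2 was far above all other samples, and the groups overlapped, since 0%-Axitinib replicate 1 exceeded 3%-Axitinib replicate 1. The means were 4516 ± 2264 and 15583 ± 13102 CPM (SD, n = 3 each), with a log2 fold change of 1.79 (standard error 0.72, edgeR adjusted p = 0.195). With 3%-Axitinib replicate 2 left out, the value was 0.83 and the criterion was not met. It was also not met without 0%-Axitinib replicate 2 (1.59), 0%-Axitinib replicate 3 (1.58) or 3%-Axitinib replicate 3 (2.04), nor with total counts as library size (1.63) or the replicate number as a block (1.57). Col1a2 (chr6:4504814-4541544) was measured at 8133, 3907 and 4211 CPM and 6571, 23518 and 7931 CPM, with the same sample highest and overlapping groups. Its log2 fold change was 1.23 (standard error 0.64, edgeR adjusted p = 0.283), or 0.42 when 3%-Axitinib replicate 2 was removed and 0.27 when 0%-Axitinib replicate 3 was removed too. It met the criterion only under DESeq2's Wald test.

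The balance between these partner chains was compared as the log2 ratio of Col1a1 to Col1a2 (0.5 CPM added to each). It was -0.19, -0.27 and -0.40 in the 0%-Axitinib group and 0.044, 0.38 and 0.24 in the 3%-Axitinib group. Col1a1 lay below Col1a2 in every 0%-Axitinib sample and above it in every 3%-Axitinib sample. The difference was 0.51 (exact two-sided permutation test, p = 0.1, the lowest possible with these group sizes; adjusted p = 0.4 over 12 chain ratios). Removing any 1 sample gave differences of 0.43 to 0.60.

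Col3a1 (chr1:45311538-45349706), the chain of the thin type III fibrils of loose connective tissue, was measured at 7083, 3883 and 1253 CPM in the 0%-Axitinib group and 4638, 13116 and 4538 CPM in the 3%-Axitinib group. 0%-Axitinib replicate 3 was lowest, 3%-Axitinib replicate 2 was highest and the groups overlapped. The log2 fold change was 0.87 (standard error 0.73, edgeR adjusted p = 0.494). Removing 3%-Axitinib replicate 2 gave 0.16, removing 0%-Axitinib replicate 3 gave 0.43 and removing both gave -0.26. In the other direction, removing 0%-Axitinib replicate 1 gave 1.53, without a call. The type V chains, which set the width of fibrils, had log2 fold changes of 1.16 (Col5a1), 0.81 (Col5a2) and 0.60 (Col5a3), and Col27a1 of 0.16. Col24a1 was the only fibrillar chain with a lower mean in the 3%-Axitinib group, with a log2 fold change of -0.94. None of these 5 met the criterion. When 0%-Axitinib replicate 3 was removed, Col24a1 was called lower, and when 0%-Axitinib replicate 1 was removed, Col5a1 was called higher.

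Per length of exon, the level averaged over the groups was 1531 CPM per kb for Col1a1, 728 for Col1a2 and 586 for Col3a1, and the other fibrillar chains lay between 2.48 (Col24a1) and 77.2 (Col5a2). Col1a1 made up 22.4, 18.7 and 27.2% of the reads of the 37 chains in the 0%-Axitinib group and 27.8, 37.8 and 32.4% in the 3%-Axitinib group, without overlap (exact two-sided permutation test, p = 0.1). All fibrillar chains together summed to 24414, 12248 and 9165 CPM and 19590.5, 70823 and 23513 CPM. This sum did not separate the groups (exact two-sided permutation test, p = 0.3).

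Several marker lists also held higher genes, in counts to be set beside the 9.54% of all tested genes that were higher. The osteoblast list had 2 higher and 0 lower genes of 8 tested, with Ibsp at 249 ± 75.1 and 4463 ± 5273 CPM (SD, n = 3 each), and its sum was highest, and mostly Ibsp, in the sample where Col1a1 was highest. Bglap (-1.27) and Bglap2 (-0.91), named after their values were seen, had log2 fold changes below 0 and did not meet the criterion. Osteoblasts also express Col1a1 and Col1a2. The activated fibroblast list, led by Postn, had 1 higher gene of 8 (Cthrc1, log2 fold change 2.95, a name taken after its value was seen) and summed to 837, 538 and 641 CPM and 965, 2139 and 759 CPM. The fibroblast list had 3 higher genes of 10, and the chondrocyte list, led by Comp, 3 higher genes of 6 with Matn3 at no more than 3 counts in any sample; the latter summed to 288, 144 and 62.0 CPM and 224, 645 and 230.1 CPM. Their part in the result was not tested. In bulk tissue, fewer cells of a type and less RNA per cell cannot be told apart.

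Type IV chains are the scaffold of every basement membrane, and Col4a1 and Col4a2 form its common network in vessels. Col4a1 (chr8:11198423-11312826) was measured at 859, 783 and 446 CPM in the 0%-Axitinib group and 357, 544 and 388 CPM in the 3%-Axitinib group. 0%-Axitinib replicates 1 and 2 exceeded all 3%-Axitinib samples, whereas 0%-Axitinib replicate 3 fell within their range. The log2 fold change was -0.70 (standard error 0.34, edgeR adjusted p = 0.263), short of the criterion. Col4a2 (chr8:11312805-11449287) was measured at 622, 544 and 371 CPM and 280.2, 413 and 336 CPM, again with 0%-Axitinib replicate 3 among the 3%-Axitinib values. Its log2 fold change was -0.58 (standard error 0.29, edgeR adjusted p = 0.277). Without 0%-Axitinib replicate 3 both met the criterion, with log2 fold changes of -0.94 (Col4a1) and -0.77 (Col4a2), and with library size as the total count they did so too (-0.84 and -0.72). DESeq2's Wald test called Col4a1 but not Col4a2.

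The 2 genes lie head to head. Their first exons share 22 bases at chr8:11312805-11312826 (GRCm38, GENCODE M21). The RefSeq windows of both genes (GRCm38.p6) reach past the starts and also hold this stretch. For each gene it begins at the start and runs into the first exon, so it is not sequence before the start. The shared bases are shown, on the strand of Col4a2 with GGGCGG in capitals, because both chains are transcribed from this stretch in opposite directions.
Col4a1 and Col4a2: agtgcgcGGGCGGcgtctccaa
The log2 ratio of Col4a1 to Col4a2 was 0.47, 0.53 and 0.27 in the 0%-Axitinib group and 0.35, 0.40 and 0.21 in the 3%-Axitinib group, within a narrow range and overlapping. It differed by -0.10 (exact two-sided permutation test, p = 0.4).

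Col18a1 (chr10:77052178-77166548), whose chain releases the fragment endostatin, was measured at 359, 215 and 135 CPM and 206, 262 and 162 CPM. The groups overlapped throughout, and the log2 fold change of -0.17 (edgeR adjusted p = 0.814) became 0.26 without 0%-Axitinib replicate 1. Its close relative Col15a1 (chr4:47208161-47313167), chosen after its values were seen, was measured at 291, 206 and 71.3 CPM and 76.4, 116 and 89.4 CPM. 0%-Axitinib replicates 1 and 2 were above every 3%-Axitinib sample and replicate 3 was below them all. The log2 fold change was -1.01 (standard error 0.49, edgeR adjusted p = 0.257). Without 0%-Axitinib replicate 1 it was -0.57 and the criterion was not met. Without 0%-Axitinib replicate 3 it was -1.41 and called lower, with an edgeR adjusted p of 0.0393. DESeq2's Wald test and the fit without a filter also called Col15a1 lower. Among the minor type IV chains, Col4a5 had a log2 fold change of -0.83 and Col4a4 of 0.45. For Col4a5, removing 0%-Axitinib replicate 3 gave -1.20 and a call, whereas removing 0%-Axitinib replicate 1 gave -0.35 and none. Col4a3 had 7, 8 and 12 counts and 3, 8 and 6 counts and was not tested, and Col4a6 had 2, 2 and 0 counts and 0 in all 3%-Axitinib samples. Of the 6 tested basement membrane chains, 5 had a log2 fold change below 0, as had 51.8% of all tested genes.

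As a share of the reads of all 37 chains, the basement membrane class made up 6.73, 10.2 and 8.79% in the 0%-Axitinib group and 3.80, 1.66 and 3.42% in the 3%-Axitinib group. The groups did not overlap, with means of 8.57 ± 1.73% and 2.96 ± 1.14% (SD, n = 3 each; exact two-sided permutation test, p = 0.1). The fibrillar share was 76.7, 70.9 and 78.3% and 80.4, 87.3 and 81.7%, also without overlap and higher in the 3%-Axitinib group (exact two-sided permutation test, p = 0.1). Wilson 95% intervals of these shares reached at most 0.12 percentage points to either side for the basement membrane class and 0.174 for the fibrillar class; like the count limits, they cover counting error only. A share also moves when another class does. In CPM, the basement membrane chains summed to 2144, 1759 and 1028 and 926, 1344 and 985, which overlapped (exact two-sided permutation test, p = 0.2). The log2 ratio of basement membrane to fibrillar CPM was -3.51, -2.80 and -3.16 in the 0%-Axitinib group and -4.40, -5.72 and -4.58 in the 3%-Axitinib group, a difference of -1.75 (exact two-sided permutation test, p = 0.1). Removing any 1 sample gave differences of -1.99 to -1.34.

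**Figure D2:**
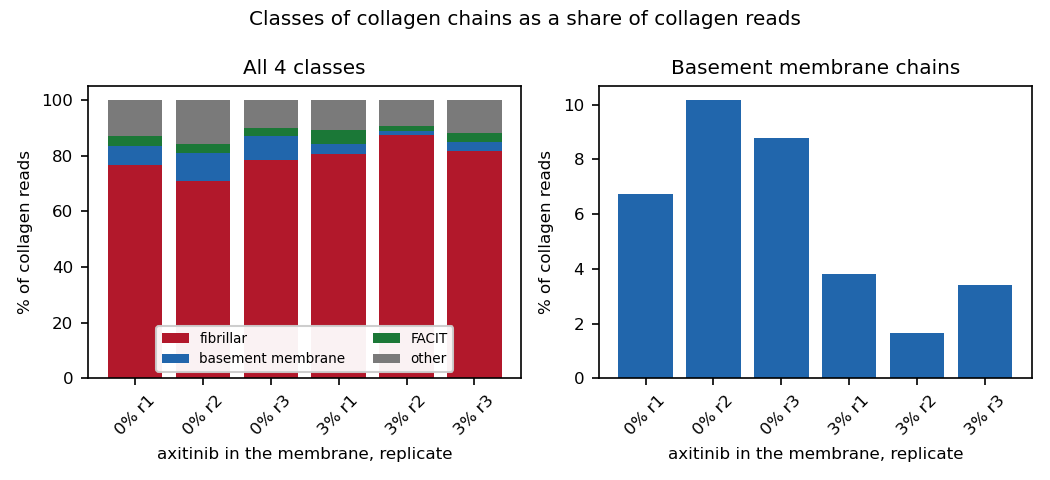
Share of the reads of the 37 chains taken by each class in every sample (left, % of collagen reads) and by the basement membrane chains alone (right, % of collagen reads); r1 to r3 are replicates and each bar is 1 sample. The basement membrane share was 3.80% or less in the 3%-Axitinib samples and 6.73% or more in the 0%-Axitinib samples.

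Cells that make basement membrane were followed by their markers, with counts to be set beside the 11.7% of all tested genes that were lower and the 9.54% that were higher. The endothelial list had 9 lower and 0 higher genes of 10 and summed to 883, 611 and 916 CPM in the 0%-Axitinib group and 250.1, 262 and 365 CPM in the 3%-Axitinib group, led by Pecam1. The list of pericytes and smooth muscle, led by Pdgfrb, had 5 lower and 0 higher genes of 10 and summed to 862, 550.3 and 672 CPM and 479, 669 and 453 CPM. Set against the endothelial sum, Col4a1 and Col4a2 had log2 ratios of 0.75, 1.12 and -0.17 and 1.35, 1.87 and 0.99, a ratio chosen after the values were seen, and the groups overlapped (exact two-sided permutation test, p = 0.2). The adipocyte list had 2 lower genes and 1 higher gene of 8, and 1 of the lower genes, Lep, passed the filter only through the 0%-Axitinib group, which set its direction. The Schwann cell list, led by Pmp22, had 2 higher genes of 8 and summed to 1783, 708 and 311 CPM and 2162, 2169 and 1876 CPM. Muscle fibres and Schwann cells also carry a basement membrane, and 11 of 13 tested muscle markers were higher. Their part in the result was not tested.

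Of the 20 genes that bind or build basement membranes with type IV collagen, 4 were lower and 4 higher (median log2 fold change 0.33). The shares of all tested genes were 11.7% lower and 9.54% higher. The laminin chain Lamc3 had a log2 fold change of -1.49 (edgeR adjusted p = 0.124). Nid2, whose product links laminin to type IV collagen, was measured at 46.3, 30.9 and 26.6 CPM and 17.0, 11.9 and 17.7 CPM, without overlap. Its log2 fold change was -1.15 (edgeR adjusted p = 0.101). Egfl7, secreted by endothelium, had a log2 fold change of -1.20 (it shares 7.37% of its exon bases with Gm20532 on the same strand), and Pxdn, which crosslinks type IV collagen, of -0.89. In the other direction, Sparc, a collagen-binding glycoprotein that bone and fibroblasts also secrete, was measured at 4427, 2427 and 2809.6 CPM and 5252, 18042 and 6018 CPM, with 3%-Axitinib replicate 2 highest. Its log2 fold change was 1.60, that of the integrin ligand Npnt 1.48, of Fbln1 1.39 and of the laminin chain Lamb2 1.16. Fbln1 is also counted among the higher genes of the fibroblast list. Pxdn and Lamb2 were named after their values were seen.

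Among the FACIT chains, Col16a1 (chr4:130047840-130099283), a minor fibril-associated chain, was measured at 247, 139.7 and 88.2 CPM in the 0%-Axitinib group and 349, 591 and 275 CPM in the 3%-Axitinib group. Every 3%-Axitinib sample was above every 0%-Axitinib sample, by a small margin between 0%-Axitinib replicate 1 and 3%-Axitinib replicate 3. The means were 158 ± 80.9 and 405 ± 165 CPM (SD, n = 3 each), and the log2 fold change was 1.36 (standard error 0.46, edgeR adjusted p = 0.151). Removing 3%-Axitinib replicate 2 gave 0.97 and removing 0%-Axitinib replicate 2 gave 1.27, and the criterion was met in neither case. Col12a1 (chr9:79598991-79718831), found on fibrils under tension, was measured at 549, 258 and 125 CPM and 569.8, 668 and 299 CPM, with overlapping groups and a log2 fold change of 0.72 (edgeR adjusted p = 0.461), or 0.34 without 0%-Axitinib replicate 3. Col14a1 (chr15:55307750-55520803), a chain of mature fibrils, was measured at 361, 143 and 75.2 CPM and 270.3, 147 and 309.6 CPM. Its highest value was in 0%-Axitinib replicate 1 and, unlike for Col1a1, its lowest 3%-Axitinib value was in replicate 2. The log2 fold change was 0.33 (edgeR adjusted p = 0.76), or -0.062 without 0%-Axitinib replicate 3. Without 0%-Axitinib replicate 1 both met the criterion, with log2 fold changes of 1.42 (Col12a1) and 1.15 (Col14a1).

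Per length, Col16a1 stood at 41.7 CPM per kb, Col14a1 at 31.1 and Col12a1 at 27.0, averaged over the groups. Col20a1 had a log2 fold change of 0.68 and Col22a1 (given by sample after its values were seen), a chain of tissue junctions such as that of muscle and tendon, of 0.84 with 1.93, 2.33 and 19.5 CPM and 3.52, 29.7 and 9.21 CPM. The high 0%-Axitinib value of Col22a1 was in replicate 3 and the high 3%-Axitinib value in replicate 2, a sample low in muscle markers. Col19a1 had no reads in the 0%-Axitinib group, where 3 counts equal 0.157, 0.175 and 0.163 CPM, and 2, 0 and 3 counts in the 3%-Axitinib group, so it was not tested.

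The major type VI chains, Col6a1, Col6a2 and Col6a3, assemble into a heterotrimer. Col6a1 (chr10:76708792-76726168) was measured at 1420.4, 904 and 341 CPM in the 0%-Axitinib group and 997, 2745 and 1408 CPM in the 3%-Axitinib group, Col6a2 (chr10:76595762-76623630) at 1104, 677 and 359 CPM and 877, 2587 and 1191 CPM. Both were lowest in 0%-Axitinib replicate 3, highest in 3%-Axitinib replicate 2 and overlapped between groups. The log2 fold changes were 0.95 for Col6a1 (edgeR adjusted p = 0.37) and 1.12 for Col6a2 (edgeR adjusted p = 0.272). When 3%-Axitinib replicate 2 was removed, Col6a1 was at 0.43 and Col6a2 at 0.53, and when 0%-Axitinib replicate 3 was removed as well, they were at 0.051 and 0.22. Removing 0%-Axitinib replicate 1 gave 1.46 for Col6a1, without a call, and 1.58 for Col6a2, with a call. DESeq2's Wald test also called Col6a2 higher. Col6a3 (chr1:90765923-90843971) was measured at 1245, 847 and 279 CPM and 538, 1923 and 644 CPM, with a log2 fold change of 0.39 (edgeR adjusted p = 0.756). This value had no stable sign. Removing 3%-Axitinib replicate 2 gave -0.43, removing 0%-Axitinib replicate 3 gave -0.018, and removing both gave -0.82 and a call.

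Within the heterotrimer, the log2 ratio of Col6a3 to Col6a1 was -0.19, -0.094 and -0.29 in the 0%-Axitinib group and -0.89, -0.51 and -1.13 in the 3%-Axitinib group. Every 3%-Axitinib sample was lower, with a difference of -0.65 (exact two-sided permutation test, p = 0.1, adjusted p = 0.4 over 12 chain ratios) and values of -0.82 to -0.51 when any 1 sample was removed. The ratio of Col6a1 to Col6a2 overlapped, differing by -0.066 (exact two-sided permutation test, p = 0.7). Of the 12 ratios only Col1a1 to Col1a2, Col6a3 to Col6a1 and Col4a1 to Col1a1 separated the groups, the last with -3.05, -2.05 and -2.83 and -4.25, -5.81 and -4.59.

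Col6a4, Col6a5 and Col6a6 encode alternative type VI chains related to Col6a3, and they lie next to each other on the minus strand of chromosome 9. Col6a5 (chr9:105856078-105960643) was measured at 53.5, 77.3 and 45.2 CPM in the 0%-Axitinib group and 27.4, 7.11 and 17.4 CPM in the 3%-Axitinib group. All 3%-Axitinib samples were below all 0%-Axitinib samples, and the lowest was replicate 2, where Col6a1 was highest. The means were 58.6 ± 16.7 and 17.3 ± 10.1 CPM (SD, n = 3 each), with a log2 fold change of -1.76 (standard error 0.48, edgeR adjusted p = 0.113). It met the criterion in all 15 alternatives, with values from -2.25 to -1.39.

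Col6a6 (chr9:105687809-105828160) was measured at 23.6, 18.8 and 11.0 CPM and 7.92, 3.55 and 9.67 CPM, again with 3%-Axitinib replicate 2 lowest and without overlap. The means were 17.8 ± 6.35 and 7.05 ± 3.15 CPM (SD, n = 3 each), and the log2 fold change was -1.33 (standard error 0.45, edgeR adjusted p = 0.152). The criterion was not met without 0%-Axitinib replicate 1 (-1.08), 0%-Axitinib replicate 2 (-1.30) or 3%-Axitinib replicate 1 (-1.42).

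Col6a4 (chr9:105989454-106096783) was scarce, with 19, 13 and 105 counts in the 0%-Axitinib group and 2, 2 and 4 counts in the 3%-Axitinib group, or 0.992, 0.758 and 5.70 CPM and 0.220, 0.182 and 0.232 CPM. Most of its reads came from 0%-Axitinib replicate 3. A lower value was a condition of its being tested, and the fitted log2 fold change was -3.50 (edgeR adjusted p = 0.116), or -2.002 without 0%-Axitinib replicate 3. Exons of Gm36993 and Gm47575 on the other strand cover 1.49% and 1.9% of its exon bases, and whether counting used the strand is not given in the sources used here.

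**Figure D3:**
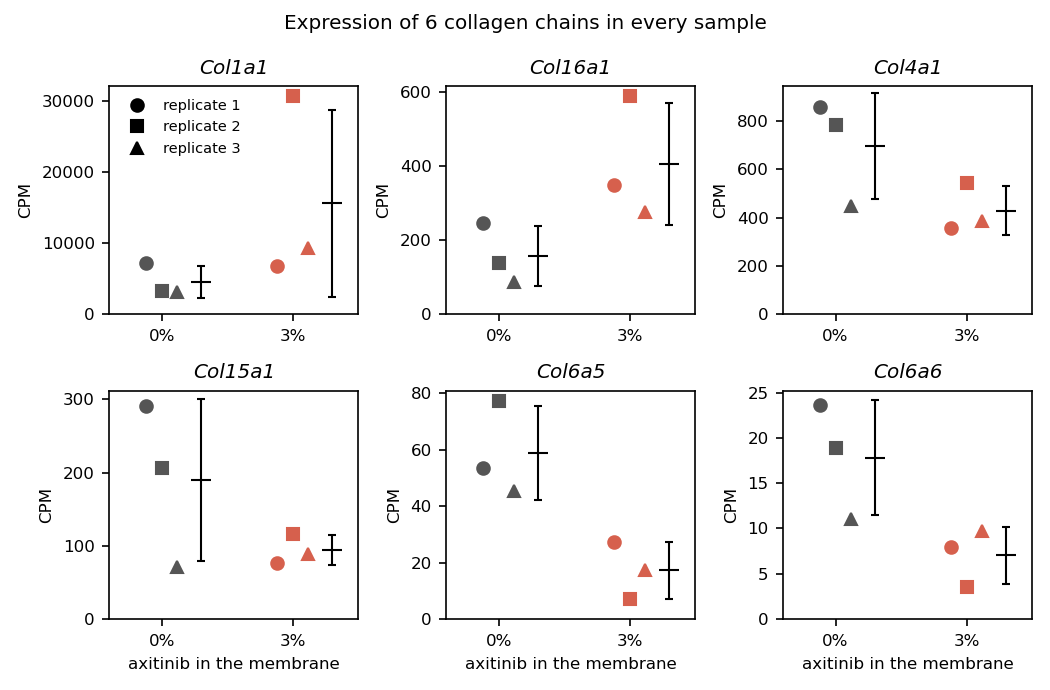
CPM of 6 chains in every sample (circle, square and triangle for replicates 1, 2 and 3) with the mean and SD of each group (n = 3) beside them. Col6a5 and Col6a6 lie lower in every 3%-Axitinib sample and Col16a1 lies higher, whereas Col1a1, Col4a1 and Col15a1 overlap.

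Since Col6a5 and Col6a6 were lower together, the bases before their starts are shown (RefSeq windows of GRCm38.p6, minus strand, 5′ to 3′, limited to bases outside GENCODE exons). The stretch of Col6a5 is chr9:105960644-105960893 and that of Col6a6 is chr9:105828161-105828335. Capitals mark GGGCGG or its reverse complement CCGCCC, the core of a GC box.
Col6a5: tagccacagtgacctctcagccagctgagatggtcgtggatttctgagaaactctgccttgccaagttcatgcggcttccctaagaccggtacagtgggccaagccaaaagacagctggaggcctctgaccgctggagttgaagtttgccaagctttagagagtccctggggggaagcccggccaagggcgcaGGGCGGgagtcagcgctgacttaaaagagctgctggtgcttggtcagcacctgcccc
Col6a6: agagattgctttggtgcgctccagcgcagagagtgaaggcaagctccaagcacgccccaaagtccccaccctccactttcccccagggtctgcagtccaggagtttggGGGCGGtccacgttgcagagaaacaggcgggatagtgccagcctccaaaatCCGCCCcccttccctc
The 250 bases before the start were searched for TATAAA (the TATA box), for CCAAT (the CCAAT box) and for GGGCGG. A match on either strand was counted. The stretch shared by Col4a1 and Col4a2 lies outside the searched bases of both genes, and Col4a1 counts as without GGGCGG. RefSeq windows were matched for 30 chains, with 32 windows in all. GGGCGG occurred in 19 of the 32 windows (59.4%) and in 32.7% of all 32851 windows. CCAAT occurred in 11 windows (34.4%, against 33.8% of all) and TATAAA in 3 (9.38%, against 12.4%). By class, GGGCGG occurred in 4 of 6 fibrillar, 4 of 8 basement membrane, 1 of 3 FACIT and 10 of 15 other windows. A match is a description of the letters and not of a bound site. Col1a1, Col4a3, Col5a2, Col12a1, Col14a1, Col22a1 and Col26a1 were not matched.

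The remaining chains of other types showed no call. Col8a1, a short-chain collagen of vessel walls and Descemet's membrane, had a log2 fold change of -0.66 and its partner Col8a2 of 0.32. The transmembrane chains Col13a1 and Col23a1 had log2 fold changes of 1.54 and 0.47, and Col13a1, looked at by sample after its values were seen, reached 24.9 CPM in 3%-Axitinib replicate 2 alone, with at most 5.70 CPM in the 0%-Axitinib group. Col7a1, the anchoring fibril under epidermis, had a log2 fold change of 0.10, Col26a1 of 0.60 and Col28a1 of -0.30. Col17a1, a transmembrane chain of basal keratinocytes, had 9, 314 and 5 counts in the 0%-Axitinib group and 1, 7 and 4 counts in the 3%-Axitinib group. Its reads came almost only from 0%-Axitinib replicate 2, the sample with keratinocyte markers. Col25a1 had 8, 5 and 100 counts and 4, 3 and 0 counts, nearly all in 0%-Axitinib replicate 3. Neither was tested.

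Genes that fold, process and crosslink fibrillar collagen were listed as partners, and 12 of 32 tested genes were higher and 0 lower (median log2 fold change 0.80), beside 9.54% higher and 11.7% lower among all tested genes. Lox, an enzyme that starts crosslinks between collagen chains, was measured at 174, 177 and 91.0 CPM and 567, 874 and 239.7 CPM. Every 3%-Axitinib sample was above every 0%-Axitinib sample, and the log2 fold change was 1.93 (edgeR adjusted p = 0.111). Its relative Loxl4 had a log2 fold change of 1.87 and Fmod, a proteoglycan on fibrils, of 1.87. Of 11 tested collagen receptors, 2 were lower and 2 higher, where all tested genes had 11.7% lower and 9.54% higher. Itga1, a receptor chain for type IV collagen, was measured at 14.5, 12.9 and 12.2 CPM and 5.17, 6.74 and 3.13 CPM, with a log2 fold change of -1.40 (edgeR adjusted p = 0.1) and no overlap. Adgrg1, a receptor for type III collagen, had a log2 fold change of -0.86. Itga10, a receptor chain of cartilage, had 2.25, with 33.5% of its exon bases shared with Gm42957 on the same strand, and the collagen-binding kinase Ddr1 had 1.12. Of the 7 cartilage collagens left out of the family, 3 were higher, beside 9.54% of all tested genes, and 0 lower (median log2 fold change 1.66): Col9a1 (3.27), Col2a1 (2.53) and Col9a3 (2.14). Col9a1 passed the filter only through the 3%-Axitinib group, which set its direction, and 2 higher genes remain without it. Lists of immune cells were taken along as markers: of the macrophage list 0 of 10 were called, and of the leukocyte list, led by Laptm5, 4 of 9 were lower (11.7% of all tested genes), with sums of 3205, 4856 and 3876 CPM and 1614, 1526 and 2732 CPM.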

How the data were processed

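The authors deposited raw read counts per gene symbol, per the labels made with fastp for filtering and STAR 2.5.2b for mapping to mm10; the annotation release and the strand setting are not given in the sources used here. Of 48444 lines, 4 held reads given to no gene (3.84 to 48.4% of a library unmapped, 2.71 to 6.65% multimapping, 3.17 to 6.14% outside genes, 3.55 to 5.74% ambiguous) and were left out. Counts were fitted on the whole table with edgeR 4.0.16 in R 4.3.3 (filterByExpr with a minimum count of 10 and a total of 15, TMM, quasi-likelihood test, Benjamini-Hochberg adjustment); the code was tested on simulated counts. Class sums, shares and ratios were compared by exact two-sided permutation tests. Alternatives used DESeq2 1.42.0, limma 3.58.1, other normalisations and filters, a replicate block and samples left out. Exon lengths and positions came from GENCODE M21 (GRCm38) and promoter windows from RefSeq (GRCm38.p6). Protein repeats were not analysed here.

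The members and lists were chosen with earlier results of these data known. Chains given by CPM in every sample were those meeting the criterion and the 3 of each class with the highest CPM per kb. Of each partner list, the 3 criterion genes with the largest change in each direction were named, and some of them are given by sample. Of each marker list, the most abundant gene was named. Some genes belong to several lists, so the lists are not separate observations. Chains not tested are given by their counts, as fixed beforehand, and the other chains are accounted for by class. Further names are marked as taken after their values were seen. Figures were drawn with matplotlib 3.10.9.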

Additional observations from a re-analysis of the deposited data

How the results depend on the processing

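Col6a5 was called lower in every alternative. Col6a4 had its direction set by filterByExpr in the alternatives that used it, so its calls there say nothing of stability. With no filter beyond 1 read it was called lower (-3.49), and with at least 10 counts asked of every sample it was untested. The number of lower chains was 3 (11.7% of all genes were lower), and 5 with total counts (16% of all genes), 6 with no filter (9.44%), 5 with DESeq2's Wald test (12.9%) and 2 to 9 with each sample left out (8.24 to 13.7%). The number of higher chains was 2 (9.54% of all genes were higher), and 1 with total counts (6.48%), 4 with DESeq2's Wald test (10.7%) and 0 to 7 with each sample left out (6.65 to 14.5%). Chains with an adjusted p of at most 0.05 numbered 0, and 5 with DESeq2's Wald test (15.6% of the chains, 12.9% of all genes) and 0 to 2 with each sample left out. The 2 are 6.06% of the chains, where 7.98% of all genes passed; both came without 0%-Axitinib replicate 3 (Col15a1 and Col24a1). At an adjusted p of at most 0.1, the count of 0 became 2 with total counts (7.4% of all genes), 5 with DESeq2's Wald test (18.4%), 9 without 0%-Axitinib replicate 3 (24.5%) and 9 with both samples named below left out (25%). Further chains called when 1 sample was left out were Col5a1, Col8a2, Col12a1 and Col14a1 (higher without 0%-Axitinib replicate 1), Col20a1 (higher without 0%-Axitinib replicate 2), Col22a1 (higher) and Col24a1 and Col4a5 (lower) without 0%-Axitinib replicate 3, and Col13a1 (higher without 3%-Axitinib replicate 1). Col17a1 was called lower with no filter and without 0%-Axitinib replicate 1 or 3, and Col25a1 with no filter. All genes called higher numbered 1456, and 1055 to 2274 with each sample left out. Median log2 fold changes with each sample left out were 0.38 to 1.43 for fibrillar chains, -0.85 to -0.35 for basement membrane chains, 0.34 to 1.15 for FACIT chains and -0.14 to 0.50 for other chains.

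Among the values followed over the alternatives, which do not include every chain, those that changed sign were the median of all tested genes (0.021 without 0%-Axitinib replicate 3, 0.0043 with limma-voom and 0.0067 with the replicate block), the median of the other chains (-0.14 without 0%-Axitinib replicate 3, -0.30 with both left out), Col3a1 (-0.26 with both left out), and Col18a1 (-0.45 to 0.26 over single samples left out, the latter without 0%-Axitinib replicate 1), Col14a1 (-0.062 to 1.15, the former without 0%-Axitinib replicate 3) and Col6a3 (-0.43 without 3%-Axitinib replicate 2, -0.018 without 0%-Axitinib replicate 3, -0.82 with both left out, up to 0.87). So did the log2 ratios of Col4a5 to Col4a6 (0.0026 with 0.1 CPM added in place of 0.5), of Col6a1 to Col6a2 (0.024 without 0%-Axitinib replicate 2, down to -0.22 without 0%-Axitinib replicate 3) and of Col12a1 to Col14a1 (-0.21 without 3%-Axitinib replicate 2, 0.90 without 3%-Axitinib replicate 3). The cause was not tested.

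Leaving out 0%-Axitinib replicate 3 and 3%-Axitinib replicate 2 together was chosen after seeing the data and narrows the spread by construction. It gave 9 lower chains (14.5% of all genes were lower), 1 higher chain (15.2% of all genes, or 2346, were higher) and 6 chains with an adjusted p of at most 0.05 (18.8% of the chains, 10.2% of all genes). Medians were 0.020 for fibrillar, -1.03 for basement membrane, 0.33 for FACIT and -0.30 for other chains. Col6a3 was called lower in this setting alone. Log2 fold changes were 0.64 for Col1a1, 0.69 for Col16a1 and 0.051 for Col6a1.

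With the replicate number as a block, 1 chain was higher (Col16a1; 8.19% of all genes) and 3 were lower (8.87% of all genes); Col1a1 had a log2 fold change of 1.57. Deviations of samples with the same number correlated at 0.184, -0.135 and -0.174, so the numbers were not taken as pairs.

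With 3 samples a group, exact tests cannot go below p = 0.1, and samples may share a mouse. At most 3 counts correspond to up to 0.33 CPM in the shallowest library, which limits Col4a3, Col4a6, Col6a4 and Col19a1. Counts are of RNA and say nothing of collagen protein, and rabbit reads were not separated.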
